A study of Mus musculus with 2 samples.

Results

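Eph receptors are the largest family of receptor tyrosine kinases in mammals, and 10 of their genes were examined here in newborn mouse midbrain: Epha3, Epha4, Epha5, Epha6, Epha7, Epha8, Ephb1, Ephb2, Ephb3 and Ephb6. They were listed by name, with earlier results of these data known, and each matched 1 of 43346 gene rows through its Ensembl identifier. The 4 Eph receptor genes left outside the set (Epha1, Epha2, Epha10 and Ephb4) and the 8 ephrin genes are given for comparison. The tissue was whole midbrain of B6NTac;B6NCrl/Lap mice at postnatal day 0, with no treatment or allele named in the labels. There was 1 group of 2 total RNA-seq libraries, labelled as biological replicates from independent isolates. Each isolate pooled males and females, from 15 mice in replicate 1 and from an unstated number in replicate 2. Because whole tissue was used, the cells that supplied each RNA are unresolved, and fewer cells of a type cannot be told apart from less RNA per cell.

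Eph receptors are activated by ephrins on neighbouring cells, so that signals pass in both directions where cells touch. EphA receptors mostly bind the lipid-anchored ephrin-A ligands and EphB receptors the transmembrane ephrin-B ligands, with Epha4 binding both kinds. In the dorsal midbrain, gradients of ephrins in the superior colliculus are read by Eph receptors on arriving retinal axons to build a map of the visual field, and the same genes act in axon guidance, cell sorting and synapse formation elsewhere.

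Most of these receptors carry a working kinase, while Ephb6 is known to be kinase-inactive. The 24 coding bases of the catalytic loop are shown for each gene because they set Ephb6 apart, from the GENCODE reference transcripts on mm10, 5′ to 3′ on the coding strand. Capitals mark the third codon, which in an active kinase encodes the catalytic aspartate.
Epha3: caccggGACcttgctgctcgcaac
Epha4: catcgaGACctggctgccaggaac
Epha5: catagaGACcttgctgctagaaac
Epha6: catcgaGATcttgccgcgaggaac
Epha7: cacaggGACcttgcagcgcgcaac
Epha8: caccgtGACctggctgcccgcaat
Ephb1: caccggGACctggctgctagaaac
Ephb2: caccgtGACcttgctgctcgaaac
Ephb3: caccgtGACcttgctgcccgaaac
Ephb6: caccgaGCActctcggcccgaagt

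In 9 of the 10 genes the marked codon was GAC or GAT, both of which encode aspartate. Ephb6 had GCA, an alanine codon, at chr6:41618664-41618687 on the plus strand. Ephb6 shared 15 of the 24 bases with Ephb2, whose loop lay at chr4:136659662-136659685 on the minus strand, whereas the other members shared 17 to 23. Epha10, outside the set and also described as kinase-inactive, had GGC there, a glycine codon. These letters describe the reference genome and were not read from the libraries.

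All 10 genes were expressed in both libraries, and the EphB receptors Ephb2 and Ephb1 led. Levels are given in TPM, an abundance corrected for transcript length and library depth, and detection meant at least 1 TPM in both libraries. By that rule 10 of 10 members were detected, against 53.8% of all protein-coding genes. The members were chosen with earlier results of these data known, so their detection is no test. Of the 4 receptor genes outside the set, 2 were not detected. The bounds given with some values are the deposited credibility limits for that library alone, at a level that the sources used here do not state. Means are ± SD over n = 2, and with 1 group and 2 libraries no p-value was computed for any result.

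Among the EphB genes, Ephb2, a receptor of axon pathfinding and excitatory synapses, stood highest. It had 31.79 TPM in replicate 1 (bounds 30.2 to 33.0) and 37.06 in replicate 2 (bounds 35.8 to 38.1), or 34.4 ± 3.73, at the 94.1 and 96.0 percentiles of protein-coding genes. Ephb1, which steers uncrossed retinal axons at the optic chiasm, had 20.80 and 15.53 TPM, or 18.2 ± 3.73. Ephb1 ranked next in each library, and its higher library still lay below the lower library of Ephb2. Ephb6 had 12.80 and 12.82 TPM, or 12.8 ± 0.0141, a spread that understates the difference in its counts given below. Ephb3, which acts with Ephb2 in forming the corpus callosum, had 4.25 and 3.68 TPM, or 3.97 ± 0.403. Ephb3 was thus the lowest EphB member in both libraries.

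Among the EphA genes, Epha4 led in replicate 1 and in replicate 2. Epha4, needed for the guidance of corticospinal axons at the midline, had 14.65 and 12.20 TPM, or 13.4 ± 1.73. Epha5, a receptor of ephrin-A gradients on retinal and other axons, had 13.56 and 9.45 TPM, or 11.5 ± 2.91. Epha8, known for its expression in the superior colliculus, had 10.64 and 9.38 TPM, or 10.01 ± 0.891. The ranges of Epha4 and Epha5 over the libraries took in that of Ephb6, while Epha8 lay below Ephb6 in both.

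Epha7, which is expressed in parts of the midbrain and forebrain and shapes topographic maps there, had 10.23 and 7.33 TPM, or 8.78 ± 2.05. Epha6, also a receptor of ephrin-A gradients, had 5.34 and 4.64 TPM, or 4.99 ± 0.495. Epha3, which in chick reads ephrin-A gradients on retinal axons, was lowest, with 2.74 TPM (bounds 2.56 to 2.87) and 2.00 (bounds 1.89 to 2.09), or 2.37 ± 0.523. Even Epha3 rested on 1130 and 1527 counts and lay above the middle of protein-coding genes, at the 54.5 and 52.7 percentiles.

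**Figure D1:**
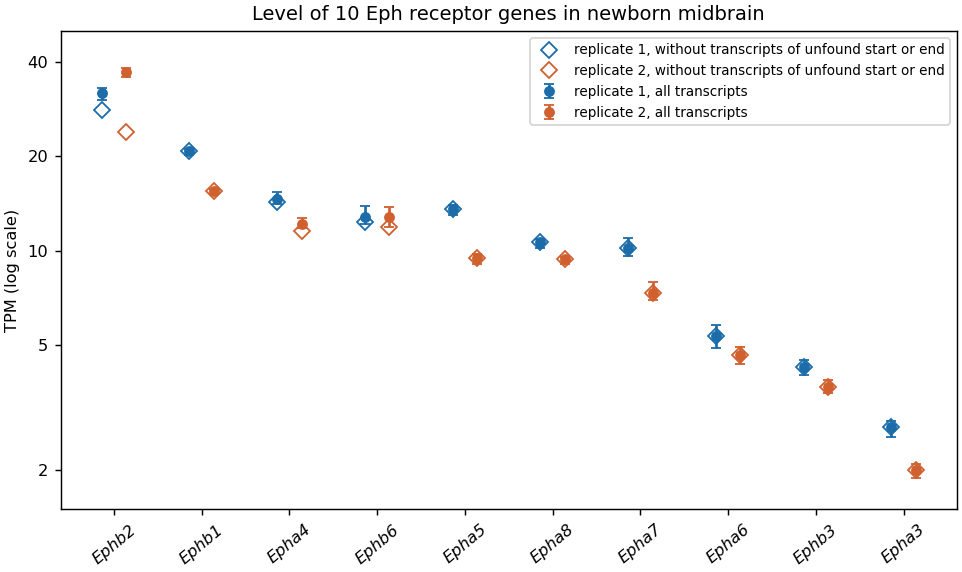
Level of each member in TPM (log axis), one filled point per library with the deposited credibility bounds as bars, ordered by the mean. Open diamonds leave out transcripts annotated without a found start or end: Ephb2 then stands at 27.97 in replicate 1 and 23.88 in replicate 2, still above every other member, and the other members move by less than 1 TPM.

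The order of the members was the same in both libraries apart from the ranks of Epha4, Epha5 and Ephb6. Epha4 ranked 3 and 4, Epha5 ranked 4 and 5, and Ephb6 ranked 5 and 3 in replicates 1 and 2. The ranges of neighbours in the order of mean TPM overlapped at 4 of 9 steps, namely between Epha4 and Ephb6, Ephb6 and Epha5, Epha5 and Epha8, and Epha8 and Epha7. Ranges farther apart in the order could still be separate, as those of Epha4 and Epha8 were. Ephb2, Ephb1 and Epha4 together held 53.0% of the summed member TPM in replicate 1 and 56.8% in replicate 2.

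Member pairs were then compared within each library, after adding 0.1 to each TPM, and a pair was called if it differed 2-fold or more in the same direction both times. Of 45 pairs, 24 were called, 43 had the same sign in both libraries, and 2 had opposite signs, both with Ephb6 (against Epha4 and against Epha5). Pairs of other genes were not put through this rule, so these counts only describe the members. Ephb2 was above 8 of the 9 other members by this rule. The widest gap was Ephb2 over Epha3, with a log2 ratio of 3.49 in replicate 1 and 4.15 in replicate 2 (3.82 ± 0.46). The exception was Ephb1, with a log2 ratio of Ephb2 over Ephb1 of 0.61 and 1.25, under 2-fold in replicate 1. Ephb1 over Ephb3, a pair from the same subclass, differed by 2.16 ± 0.15. At the low end, Epha3 lay below 7, Ephb3 below 6 and Epha6 below 5 of the 9 others.

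**Figure D2:**
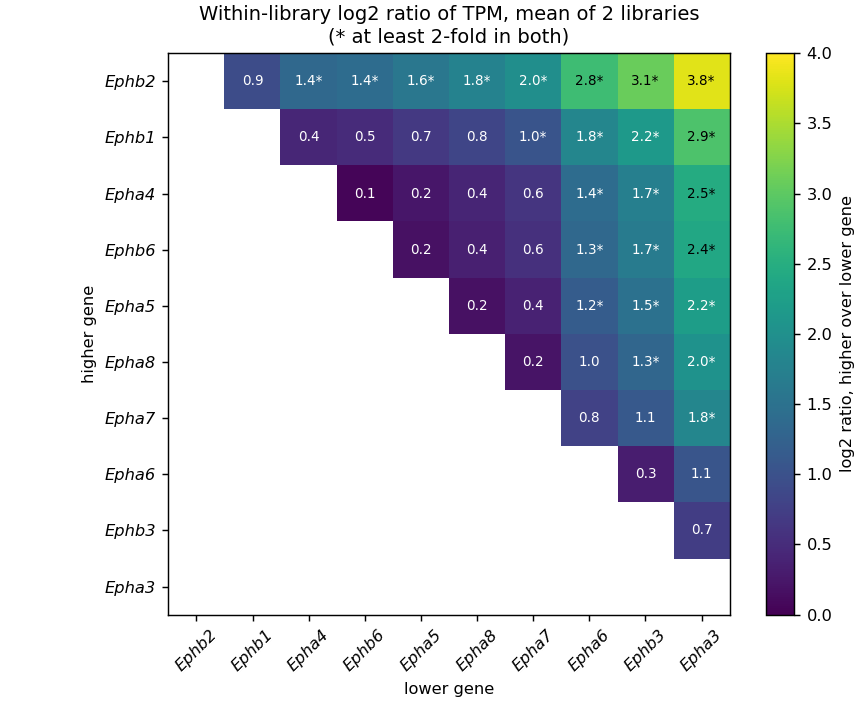
Log2 ratio of TPM + 0.1 for each of the 45 member pairs, row gene over column gene, as the mean of 2 within-library ratios, with an asterisk where the ratio was at least 2-fold in both. The 24 called pairs lie in the top row, which is Ephb2, and in the 3 columns of Epha6, Ephb3 and Epha3, apart from Ephb1 over Epha7.

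No member differed 2-fold between the libraries. Expected counts of the 10 members were whole numbers in both libraries, 40753 in sum in replicate 1 and 60035 in replicate 2, which leaves no sign of reads divided between a member and another gene. After scaling by trimmed means (TMM), 0 of 10 members differed by 2-fold or more between the libraries, against 17.2% of the 18554 genes that held 10 or more counts in sum. That share takes in genes with far fewer counts than any member, and it was not computed for genes of like count. The members' log2 ratios, replicate 2 over replicate 1, ran from -0.19 to 0.10, with a median absolute value of 0.12. Among the 10282 genes that held 1000 or more counts in sum, as every member did, that median was 0.18.

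The members split evenly in direction, 5 lower and 5 higher in replicate 2. Epha3, Epha4, Epha5, Epha7 and Ephb1 had log2 ratios between -0.19 and -0.14. Ephb2, Ephb3, Epha6, Ephb6 and Epha8 had ratios between 0.05 and 0.10. The counting interval of the ratio (95%, counting error only) excluded 0 for 8 members, all but Epha6 and Ephb3, under TMM scaling. Scaled to the spike-in RNAs, it excluded 0 for 6, with Ephb2 and Ephb6 also including it. The share of all genes by this rule was not computed, so these counts do not set the members apart. For Ephb6 the counts were 3200 and 5195, a log2 ratio of 0.09, although its TPM was nearly equal. Without scaling, the TPM of detected protein-coding genes had a median log2 ratio of -0.27, and the ratios of Epha6, Epha8 and Ephb3 changed sign.

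**Figure D3:**
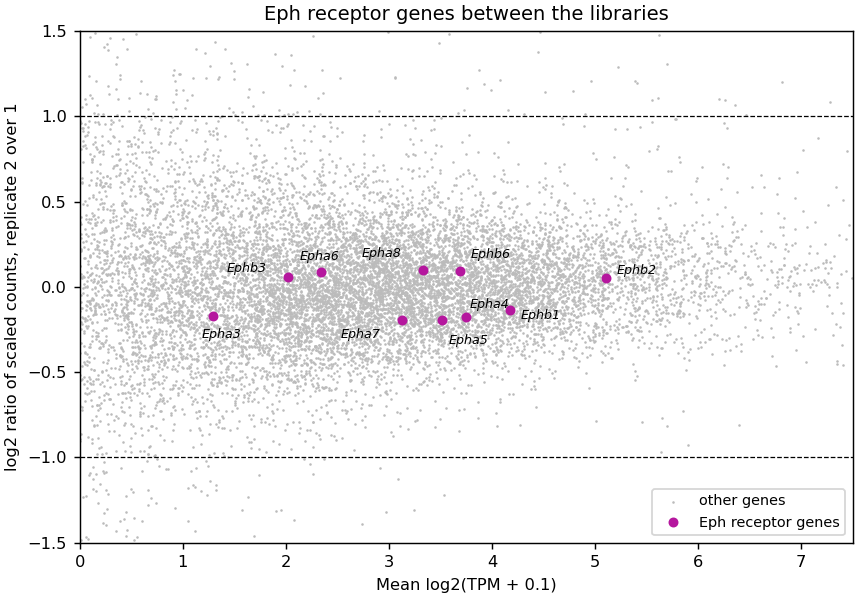
Log2 ratio of TMM-scaled counts, replicate 2 over replicate 1, against the mean log2(TPM + 0.1) of each gene, with the members in colour, other genes in grey, and dashed lines at 2-fold. The members lie between -0.19 and 0.10, inside the grey cloud; the axes are cropped, so genes beyond them are not drawn.

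Markers of some neighbouring tissues differed between the libraries. The midbrain markers Otx2, En2, Pax5 and Meis2 were all detected in both libraries, with log2 ratios from -0.28 to 0.39. So were the dopamine neuron markers Th and Slc6a3, with ratios of 0.46 and 0.04. Of 3 hindbrain markers none was detected in both, yet all were higher in replicate 2, with log2 ratios from 0.98 to 7.15 and a summed level of 0.59 TPM against 4.18. The cerebellar markers Zic1 and Neurod1 had ratios of 0.60 and 2.30, and summed to 20.32 and 29.85 TPM. The choroid plexus markers Ttr and Folr1 had ratios from 1.60 to 3.78 and summed to 15.48 and 164.76 TPM. The forebrain markers Bcl11b, Emx2 and Neurod6 were detected in both libraries, with ratios of 0.02, 0.18 and 0.85. Among other cell types, the ratios were -0.49 for Dcx and 0.12 for Tubb3 (young neurons), -0.46 for Fabp7 and 0.25 for Slc1a3 (radial glia and astrocytes), and -0.31 for Cldn5 and 0.02 for Pecam1 (endothelium). The part of these tissues and cell types in the members' ratios was not tested.

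A gene level can hide what kind of transcript it counts. Transcripts were therefore classed from the reference annotation as full-length coding (coding sequence at least 80% of the longest annotated for the gene), shorter coding, or without coding sequence, and the deposited share of each transcript in its gene's TPM was summed by class. Over the 8 members with at least 2 transcripts, the median full-length share was 86.1% in replicate 1 and 69.3% in replicate 2. Over the 8547 detected protein-coding genes with at least 2 transcripts it was 83.6% and 84.9%. Of those 8 members, 1 had a full-length share under 50% in both libraries, against 14.1% of those genes. That member was Epha7. In 2 of the 8, Epha4 and Ephb2, a transcript's share moved by 20 points or more between the libraries, against 26.1%. Both counts are near the background.

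**Figure D4:**
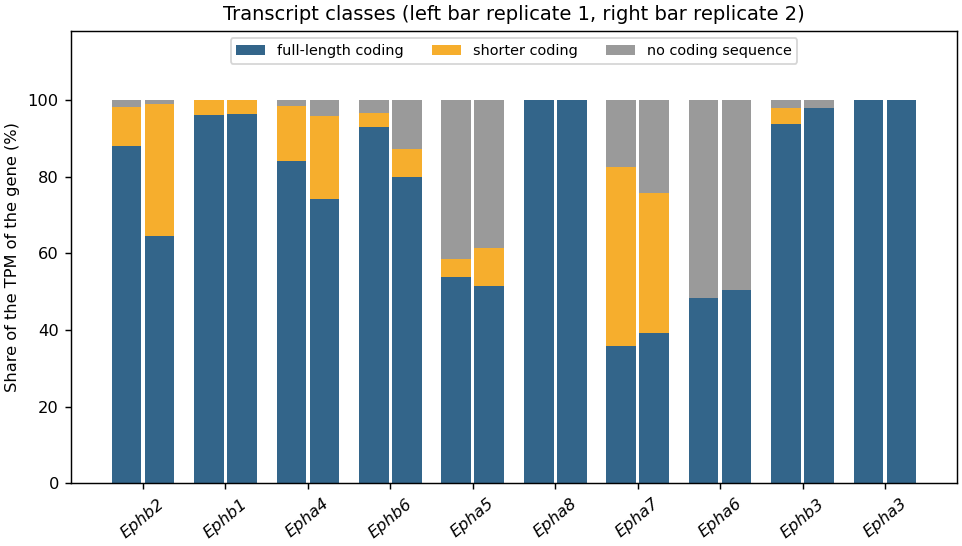
Share of each member's TPM in full-length coding, shorter coding and noncoding transcripts, in percent, with replicate 1 on the left and replicate 2 on the right of each pair of bars. Shorter coding transcripts are largest in Epha7 (46.6% and 36.6%), noncoding transcripts in Epha5 and Epha6, and the bars of Ephb2 differ most between libraries.

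Epha7 carried about as much RNA for a kinase-lacking form as for the full-length receptor. Forms of Epha7 without the kinase are known from mouse embryos, where they change the response of cells to ephrin-A5. The reason to show the sequence is that the coding ends set the forms apart: Epha7-201, Epha7-202 and Epha7-204 share 1798 coding bases and then part. The last 15 shared bases are in lower case and the transcript's own coding bases in capitals, the first 30 for Epha7-201, all 32 for Epha7-202 and the first 48 for Epha7-204 (spliced, plus strand of chromosome 4, from position 28943364, mm10).
Epha7-201: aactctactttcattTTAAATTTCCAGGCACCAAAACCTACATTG
Epha7-202: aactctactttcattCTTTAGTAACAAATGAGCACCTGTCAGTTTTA
Epha7-204: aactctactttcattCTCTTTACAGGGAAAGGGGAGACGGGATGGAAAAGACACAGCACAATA

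Epha7-201 goes on for 1196 coding bases that include the catalytic loop, while Epha7-202 ends after 32 and Epha7-204 after 80, with no catalytic loop. Epha7-202 had 3.44 TPM in replicate 1 (bounds 2.87 to 3.99) and 2.68 in replicate 2 (bounds 2.39 to 2.88). Epha7-201 had 3.39 TPM (bounds 3.01 to 3.58) and 2.88 (bounds 2.61 to 2.95). The bounds of Epha7-202 and Epha7-201 overlapped in each library. Epha7-204 had 1.33 TPM in replicate 1 (bounds 0.529 to 1.97) and was listed at 0 in replicate 2, with an upper bound of 0.168. Shorter over full-length Epha7 was therefore 1.30-fold in replicate 1 and 0.931-fold in replicate 2, with no constant direction. The full-length share was 35.9% and 39.3%, and noncoding transcripts, led by Epha7-206 and Epha7-208, held 17.5% and 24.2%.

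In Ephb2 the class shares differed most between the libraries, and its gene level moved with them. Ephb2-206, a fragment of 828 bases annotated without a found start or end, went from 136.76 to 999.22 expected counts and from 3.25 TPM (bounds 1.85 to 4.68) to 12.86 (bounds 11.63 to 13.998). Its share of the gene went from 10.2% to 34.7%. Of its 826 bases in frame, 823 lie inside coding bases 1000 to 1822 of Ephb2-201, before the catalytic loop, so its reads can fit the long transcripts as well. The average length used for the gene fell from 4808.53 to 3591.31 bases between the libraries, which raises TPM at a given count. Without transcripts of unfound start or end, Ephb2 had 27.97 and 23.88 TPM, or 25.9 ± 2.89, so its TPM was lower in replicate 2 instead of higher. Ephb2 remained the highest member in both libraries on that basis. These TPM were not scaled between the libraries, and detected protein-coding genes had a median log2 TPM ratio of -0.27. The scaled counts of Ephb2 gave a log2 ratio of 0.05.

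Full-length Ephb2 RNA itself came in forms that differ by a codon. The extra codon is shown because it separates the main forms at this place, being in Ephb2-201 and in the fragment but not in Ephb2-202 or Ephb2-203. Capitals mark the 3 extra bases (spliced, minus strand of chromosome 4, within 136675516 to 136683934, mm10).
Ephb2-201: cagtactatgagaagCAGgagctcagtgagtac
Ephb2-203: cagtactatgagaaggagctcagtgagtac

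Ephb2-201 and Ephb2-203 have the same coding length, 2961 bases, so they also differ elsewhere. Ephb2-201 had 11.75 TPM in replicate 1 (bounds 10.8 to 12.4) and 7.23 in replicate 2 (bounds 6.71 to 7.65). Ephb2-203 had 11.66 TPM (bounds 10.7 to 12.4) and 13.05 (bounds 12.4 to 13.5), and Ephb2-202 had 4.56 and 3.60. The form with the extra codon thus made up 42.0% of full-length Ephb2 TPM in replicate 1 and 30.3% in replicate 2. With the fragment Ephb2-206, which also holds that codon, transcripts with it made up 47.2% and 54.2% of all Ephb2 TPM. The share of the extra codon was therefore lower in replicate 2 among full-length transcripts and higher once the fragment was included.

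In Epha4 the shares moved between transcripts that encode the same receptor. Epha4-201, Epha4-204 and Epha4-205 share the same coding sequence and differ outside it, although Epha4-205 is annotated as a target of nonsense-mediated decay. Epha4-201 had 8.55 TPM in replicate 1 (bounds 4.68 to 9.90) and 0.52 in replicate 2 (bounds 0.330 to 3.15). Epha4-205 had 2.87 TPM (bounds 1.27 to 6.64) and 6.47 (bounds 3.79 to 6.76), and Epha4-204 had 0.90 and 2.06. Together they held 84.1% and 74.2% of the gene. The bounds of Epha4-201 did not overlap between libraries and those of Epha4-205 did. The remaining transcript above a mean share of 5%, Epha4-207, is also in the decay class, has a coding sequence of 114 bases and held 11.8% and 16.6%.

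Epha5 and Epha6 carried the largest noncoding shares. Retained-intron transcripts held 41.5% and 38.5% of Epha5 TPM, led by Epha5-207 at 27.8% and 26.6%. Epha5-209 held 7.57% and 4.34%, and Epha5-210 held 4.76% and 7.56%. Of the coding forms, Epha5-205 was the longest and highest, with 3.81 and 3.08 TPM, followed by Epha5-202 with 2.18 and 1.45. Epha5-201, Epha5-202 and Epha5-204 lack 492, 439 and 664 coding bases of Epha5-205 and all keep the catalytic loop. Epha5-204, at 78.75% of the longest coding sequence, fell just short of the full-length limit and Epha5-201, at 84.2%, just passed it. Transcripts with the loop summed to 58.5% and 61.5% of Epha5. In Epha6 the full-length transcript Epha6-201 held 48.5% and 50.4%, and the retained-intron transcript Epha6-202 held 41.2% and 39.2%. Epha6-204, which has no coding sequence, held 5.16% and 10.3%. The libraries were made from total RNA, so incompletely spliced RNA was measured with mature RNA, and its part in these shares was not tested.

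**Figure D5:**
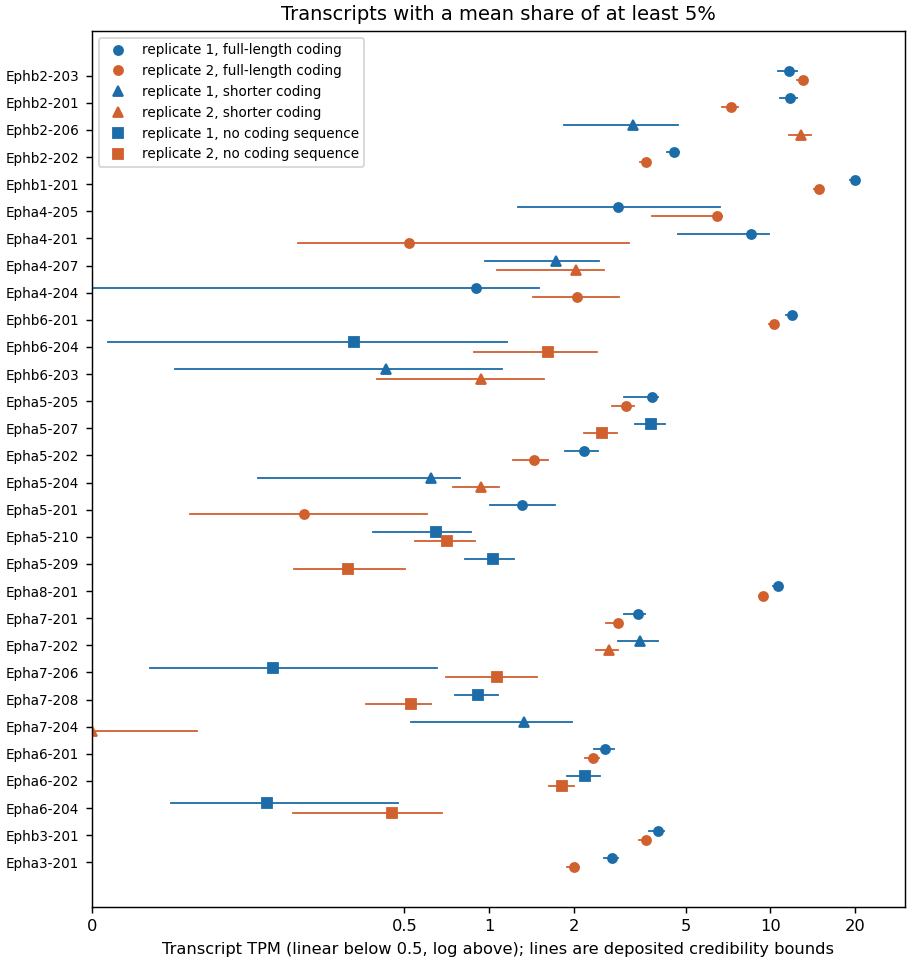
TPM of the 30 member transcripts with a mean share of at least 5%, per library (colour) and class (marker), with deposited credibility bounds as lines, on an axis linear below 0.5 and logarithmic above. Bounds are narrow for genes with few transcripts, such as Ephb1-201, and wide for Epha4-201 and Epha4-205; Ephb2-206 lies at 3.25 in replicate 1 and 12.86 in replicate 2.

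The other 5 members were mostly full length. Epha3 and Epha8 had 1 transcript each in the deposited tables, Epha3-201 and Epha8-201. Ephb1 was full length at 96.0% and 96.3%, with 3.96% and 3.66% in Ephb1-203, a shorter coding form without the catalytic loop. Ephb3 was full length at 93.7% and 97.9%, all of it Ephb3-201. Ephb6 was full length at 93.0% and 80.1%, all of it Ephb6-201, with Ephb6-204, which has no coding sequence, at 3.30% and 12.7% and the shorter Ephb6-203 at 3.68% and 7.29%. By expected counts Ephb6-204 and Ephb6-203 were small, since full-length Ephb6 held 99.4% and 97.6% of the counts of the gene.

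Counting full-length transcripts alone lowered some members and left others. Ephb2 had 25.9 ± 2.89 TPM, Ephb1 had 17.5 ± 3.54, Ephb6 had 11.1 ± 1.16, Epha4 had 10.7 ± 2.31 and Epha8 had 10.01 ± 0.891. Epha5 then stood at 6.09 ± 1.72, Ephb3 at 3.80 ± 0.262, Epha7 at 3.28 ± 0.559, Epha6 at 2.47 ± 0.177 and Epha3 at 2.37 ± 0.523. Epha7 moved from above Ephb3 to below it in mean full-length TPM, with ranges of 2.88 to 3.67 and 3.61 to 3.98 that overlapped.

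In the genome, 3 members lie on chromosome 16 (Epha3, Epha6 and Ephb3), 3 on chromosome 4 (Epha7, Epha8 and Ephb2) and the rest on chromosomes 1, 5, 6 and 9. Ephb2 (136647539 to 136835988) and Epha8 (136929419 to 136956816) face the same way on the minus strand of chromosome 4, 93.4 kb apart, with only the complement genes C1qa, C1qb and C1qc between them among protein-coding genes (mm10). Gene spans ran from 15.0 kb for Ephb6 to 952 kb for Epha6. Exons of Gm9017 overlap Epha6 and those of Gm26846 overlap Ephb1 on the other strand, but they held 3 and 0 counts in replicate 1 and 0 each in replicate 2. RefSeq promoter windows ran from 250 bases before to 50 after the start (GRCm38.p6). Of 11 windows of the members, with Epha7 counted more than once, 9 had at least 50% GC and an observed to expected CpG ratio of at least 0.6. Those of Epha4 and Epha6 did not. The share was 33.5% among 32851 windows of all genes. Those windows were not limited to detected genes, as the members were, so the shares are not matched.

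The receptor genes outside the set split in level. Epha10 had 10.69 and 7.96 TPM, or 9.32 ± 1.93, between the means of Epha8 and Epha7. Its main transcript is annotated without a found start or end, and without it Epha10 had 4.37 and 2.89 TPM, or 3.63 ± 1.05. Ephb4, known for vessel formation, had 2.99 and 2.94 TPM, close to Epha3. Epha2 had 0.68 and 0.57 TPM and Epha1 had 0.14 and 0.13, so 2 of the 4 were detected. Summed over all 14 genes, EphA receptors had 68.67 TPM and EphB receptors 72.63 in replicate 1, and 53.66 and 72.03 in replicate 2. The log2 ratio of EphA over EphB was -0.08 and -0.42 (-0.25 ± 0.24), a difference about as large as its spread. The kinase-inactive pair Ephb6 and Epha10 held 16.6% and 16.5% of the TPM of all 14 receptors, and Ephb6 alone held 9.06% and 10.2%. The share of the pair includes the Epha10 transcript of unfound start or end, and it was not computed without such transcripts.

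Of the 8 ephrin genes, 7 were detected, and ephrins of both classes were present. Efnb3, a midline barrier ligand of the spinal cord, led with 33.10 and 26.57 TPM. Efna3 had 16.84 and 15.54, Efna2 had 9.61 and 9.37, and Efnb1 had 3.84 and 4.11. Below these, Efnb2 had 3.22 and 3.12 TPM, Efna5, the ligand that patterns retinal axons in the colliculus with Efna2, had 3.90 and 2.03, and Efna1 had 1.51 and 1.20. Efna4 was the gene not detected in both, with 0.64 and 1.46 TPM. The 14 receptors summed to 141.3 TPM and the ephrins to 72.66 in replicate 1, and to 125.69 and 63.40 in replicate 2. Receptors over ephrins gave a log2 ratio of 0.96 and 0.99 (0.97 ± 0.02), with the receptors higher in both libraries. With the 10 members alone the ratio was 0.83, and with full-length receptor transcripts alone 0.59.

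The downstream genes on the lists were all detected. All 10 exchange factors and regulators of small GTPases were detected, led by Arhgap35 (37.74 and 28.93 TPM), Kalrn (30.94 and 21.74), Rasa1 (18.94 and 13.71) and Itsn1 (16.07 and 14.24). Ngef, the exchange factor that binds Epha4, had 10.95 and 10.19 TPM. All 10 adaptors and kinases were detected, with the Src-family kinases Src (29.30 and 23.72 TPM) and Fyn (28.44 and 22.18) at the top, then Cdk5 (17.76 and 17.97) and Grb2 (18.54 and 15.74).

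Genes that end the signal or anchor the receptor were detected too. All 9 genes of shedding, endocytosis and dephosphorylation passed, among them Ptpro, a phosphatase of Eph receptors (18.96 and 15.00 TPM), Ncstn (16.81 and 12.89) and Ptpn1 (7.83 and 7.81). All 6 PDZ and membrane partners passed, led by Grin1, the NMDA receptor subunit that associates with Ephb2 (25.59 and 26.80 TPM), Afdn (28.39 and 18.40), Sdcbp (17.94 and 15.38) and Pick1 (18.14 and 12.40). Over ephrins and downstream genes together, 42 of 43 were detected, against 53.8% of all protein-coding genes. The lists were chosen with earlier results of these data known, so their detection is no test of the pathway. The 43 genes had a median of 9.49 TPM, beside 10.8 for the members and 7.32 for all detected protein-coding genes.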

How the data were processed

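A gene table and a transcript table were used per library, quantified on mm10 against GENCODE M4 per the deposited notes. The sources used here do not name the aligner or quantifier. Per the labels' descriptions, the libraries are stranded, from RNA above 200 nucleotides depleted of ribosomal RNA, with paired reads of 101 bases. The authors deposited expected counts (estimated counts that need not be whole), TPM values, FPKM values, lengths, the percent of each gene's abundance in each transcript, and credibility bounds; the FPKM served as an alternative. The credibility bounds were taken as a signal per feature, as deposited by the authors. Depth was 46685706 and 72779229 counts, of which the members held 0.0884% and 0.0834% of the gene counts. Names, coordinates and coding sequences came from GENCODE M21 on the same assembly, which matched 42462 of 43346 genes; 46 of 48 member transcripts had the same length there (not Epha3-201 and Epha5-201).

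Counts were rounded and scaled with TMM in edgeR 4.0.16 (R 4.3.3), with DESeq2 1.42.0 size factors and spike-ins as alternatives; no model was fitted, as there is 1 group. The TMM scaling and the scaled log2 ratios were tested on simulated gene counts, and the other steps were not tested in this way. The replicate is a pool of animals, and the SD measures only the spread between these 2 samples. The members and lists were chosen with earlier results of these data known. The text names all members, member transcripts with a mean share of at least 5%, all other Eph receptor and ephrin genes, and the 4 genes with the highest mean TPM of each other list; Ngef, Ephb1-203, the C1q genes and the antisense genes were added after their values were seen. A gene named by this rule is not reported here.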

Additional observations from a re-analysis of the deposited data

How the results depend on the processing

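Of 218 alternative values, 186 were classed as the same, 32 as moved, and 0 changed direction among called values. The uncalled ratios of Epha6, Epha8 and Ephb3 changed sign on unscaled TPM. Many of the 186 could hardly have moved, so that number is no measure of robustness. Leaving out either library moves a mean by less than its SD. FPKM and rescaled TPM keep the members' shares by construction, apart from rounding. Counts of genes had no SD, and the fall from 10 to 7 detected members at 5 TPM was classed as the same. All 10 members stayed detected when the limit was 0.5 TPM and when either library was left out, and 7 passed a limit of 5 TPM. Called pairs numbered 24 at 2-fold and 8 at 4-fold. The median full-length share over all 10 members, 2 of which have a single transcript, was 82.9% of TPM but 96.2% of expected counts, since short transcripts weigh more in TPM. The log2 ratio of EphA over EphB went from -0.25 to -0.57 with full-length transcripts alone. Receptors over ephrins went from 0.97 to 0.83 with the 10 members and 0.59 with full-length receptor transcripts. It was 0.79 without receptor transcripts of unfound start or end, an alternative chosen after seeing the data. All ephrin transcripts were kept each time, so only the receptor side could fall. By expected counts the share of Epha6 went from 49.4% to 72.1% and that of Ephb2 from 76.2% to 95.8%. The limit on coding length mattered for Epha7 and Epha5: Epha7 went from 37.6% to 79.2% at a limit of 50%, and Epha5 from 52.7% to 30.3% at 95%. Epha4 went from 79.2% to 42.9% when the decay class was not counted, also chosen after seeing the data. No paired analysis was possible because there is 1 group. Depth did not limit the genes, which held over 1000 counts each, but transcripts that share most of their bases could not be told apart well.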
